A study of Mus musculus with 12 samples.

Results

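The Schlafen genes are a family of the immune system that, in the mouse, lies as a cluster on chromosome 11. The 7 members described here, Slfn1, Slfn2, Slfn3, Slfn4, Slfn5, Slfn8 and Slfn9, were taken by symbol from the deposited table of 21958 genes. They are 7 of the 9 genes in that table whose symbol starts with Slfn, the others being Slfn14 and Slfnl1. All 7 passed the filter on low counts. The family was chosen by its read counts in all 12 samples, so the members' values are given as a description and no p-value is given for them.

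The samples are bone marrow cells of WT (wild-type) mice in 3 groups of 4. The control group was untreated. In the model group CTX, a chemotherapy agent that the labels do not spell out, had caused myelosuppression, a loss of blood cell production. The cornus group received self-assembled nanoparticles made from Cornus officinalis, a dogwood. Whether these mice had CTX as well is not in the labels, nor are dose, time, strain, age or sex, and nothing says that the samples of a group were separate animals, so p-values may reflect only the scatter among the samples at hand. In bulk RNA, fewer cells of a type and less RNA per cell cannot be told apart.

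Library totals lay between 13902122 and 19139771 read counts. Controls 1 to 3 were nearly alike (chi-square per degree of freedom 1.71 to 1.93 over genes with at least 20 counts in both libraries, against 13.6 or more in every other pair within a group), while control 4 stood apart. Each comparison with control was therefore fitted again with the sum of controls 1 to 3 as 1 sample, called the summed fit here. Against control, the words rose and fell are kept for genes with an edgeR adjusted p under 0.05, over all genes tested, in both fits. Late neutrophil markers, which define the marrow's main cell type, summed to 50989 to 80464 CPM (read counts scaled to a common library size) in the controls, with all 18 detected.

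The name Schlafen is the German word for sleep, after the halt in growth that the first members imposed on developing T cells. All members share an amino-terminal core that in several of them binds or cuts transfer RNA or ribosomal RNA. The family is sorted by length: short forms (Slfn1 and Slfn2), intermediate forms (Slfn3 and Slfn4), and long forms (Slfn5, Slfn8 and Slfn9, with Slfn14) that carry a helicase-like end. Type I interferon raises the transcripts of many members in mouse cells, and many genes it induces carry a DNA element called the interferon-stimulated response element.

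The 250 bases before the start of each gene, as RefSeq annotates it on GRCm38.p6, show where the members differ in that element. A RefSeq window was found for all 7 members. The motif searched was GAAA, any pair of bases, and GAAA again, which reads TTTC, any pair of bases, and TTTC on the other strand. It matched in the windows of Slfn5, Slfn8 and Slfn9, the 3 long members, and in none of Slfn1, Slfn2, Slfn3 and Slfn4. Of 32851 such windows in the genome, 2.98% hold a match. Counted by gene, 3.46% of 27025 genes have one, and 13 of 30 interferon-stimulated genes with a window do (43.3%). The windows of the long members are shown with the match in capitals, followed by those of Slfn4 and Slfn2, which have none, read 5′ to 3′ on the gene's strand.

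Slfn5 (chr11:82951852-82952101, + strand): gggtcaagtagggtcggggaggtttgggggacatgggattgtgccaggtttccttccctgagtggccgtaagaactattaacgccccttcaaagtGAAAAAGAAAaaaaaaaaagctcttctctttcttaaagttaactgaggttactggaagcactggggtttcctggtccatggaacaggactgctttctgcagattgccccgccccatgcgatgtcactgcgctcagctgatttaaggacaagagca

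Slfn9 (chr11:82991831-82992080, - strand): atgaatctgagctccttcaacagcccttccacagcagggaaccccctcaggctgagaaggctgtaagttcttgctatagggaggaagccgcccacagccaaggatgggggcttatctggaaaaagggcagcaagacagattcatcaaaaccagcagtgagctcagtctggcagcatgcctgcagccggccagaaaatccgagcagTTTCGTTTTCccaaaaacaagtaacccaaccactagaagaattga

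Slfn8 (chr11:83020811-83021060, - strand): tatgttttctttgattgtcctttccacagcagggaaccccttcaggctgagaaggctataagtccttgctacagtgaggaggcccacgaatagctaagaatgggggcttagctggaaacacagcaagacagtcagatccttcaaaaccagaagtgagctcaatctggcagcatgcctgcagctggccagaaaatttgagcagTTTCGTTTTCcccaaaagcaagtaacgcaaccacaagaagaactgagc

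Slfn4 (chr11:83174936-83175185, + strand): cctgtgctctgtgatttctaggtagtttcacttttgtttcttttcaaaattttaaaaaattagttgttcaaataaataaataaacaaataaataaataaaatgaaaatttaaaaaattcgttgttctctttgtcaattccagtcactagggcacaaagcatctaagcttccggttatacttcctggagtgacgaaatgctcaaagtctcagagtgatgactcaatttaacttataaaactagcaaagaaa

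Slfn2 (chr11:83064862-83065111, + strand): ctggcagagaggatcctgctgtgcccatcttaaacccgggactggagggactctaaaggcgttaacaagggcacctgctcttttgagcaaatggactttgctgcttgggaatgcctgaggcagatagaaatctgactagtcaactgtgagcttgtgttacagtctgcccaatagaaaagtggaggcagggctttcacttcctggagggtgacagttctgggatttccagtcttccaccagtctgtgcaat

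The matches in Slfn8 and Slfn9 begin 48 and 45 bases before the start and have the same letters, tttcgttttc. The match in Slfn5 begins 155 bases before. RefSeq lists another start for Slfn8, and the same match lies 136 bases before that one. The interferon gamma element TTCNNNGAA, which reads the same on both strands and is in 7.02% of windows, was found in no member's window. The letters GAGGAA, 1 form of an ETS-type element, are in 23.3% of windows on either strand. Among the members these exact letters matched in Slfn9 alone, 170 bases before its start and apart from the other match. Other ETS-type letters were not searched, so the remaining windows may hold them. A match describes letters and is not a measured binding site, and a window without one says nothing of elements farther away. Among the members with no match, Slfn3 rose by 1.88 ± 0.18 (log2 change ± SE) in the model group against control. Slfn1, Slfn2 and Slfn4 did not rise in both fits, with -0.01 ± 0.34, -0.11 ± 0.17 and 0.97 ± 0.36. Slfn5, Slfn8 and Slfn9, with a match, rose by 1.47 ± 0.32, 1.60 ± 0.23 and 2.04 ± 0.15. The part of the motif in these changes was not tested.

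In the deposited coordinates, whose genome build is not given in the sources used here, the 7 members span 263.8 kb of chromosome 11, from 82842175 to 83105980. Slfn5, at 82842175 to 82855666, comes first. Slfn9 and Slfn8 follow on the minus strand, then Slfn2, Slfn1, Slfn4 and Slfn3 on the plus strand, with no other gene of the table between them. Close relatives can share reads. In GENCODE M21 transcripts, 3.38% of the 100-base windows of Slfn8, 3.71% of Slfn9 and 2.92% of Slfn3 occur in another gene, against 0.271% or less of Slfn4, Slfn2 and Slfn1. At 50 bases the shares rise to 14.6% for Slfn8, 11.9% for Slfn9, 16.0% for Slfn3 and 11.3% for Slfn4. Slfn8 and Slfn9 share most with Slfn10-ps, which has no row in the table used here. Slfn5 shares 6.40% of its 100-base windows, mainly with the antisense gene Slfn5os, and without a stated strand setting reads of that pair cannot be told apart.

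Levels between genes are compared in FPKM, the deposited read count scaled by gene length and library size. In the controls Slfn2 stood highest with 259 ± 51.7 FPKM (SD, n = 4), followed by Slfn4 with 143 ± 53.4 and Slfn1 with 123 ± 37.9. Slfn8 (15.3 ± 4.06), Slfn5 (13.5 ± 5.30) and Slfn9 (7.70 ± 1.54) were far lower, and Slfn3 was lowest with 2.36 ± 0.667. The neighbours Slfn4 and Slfn1, Slfn8 and Slfn5, and Slfn5 and Slfn9 overlapped over the 4 controls, and the other neighbours did not.

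In the model and cornus groups Slfn4 took the first place, with 293 ± 114 and 569 ± 139 FPKM. Slfn2 came second with 254 ± 37.1 and 280.3 ± 31.3 FPKM, and its range overlapped that of Slfn4 in the model group but not in the cornus group. From the third place down the order was the same in all 3 groups, Slfn1, Slfn8, Slfn5, Slfn9 and Slfn3. In the model group Slfn1 overlapped Slfn8, Slfn8 overlapped Slfn5 and Slfn5 overlapped Slfn9, and in the cornus group only the neighbours Slfn8 and Slfn5 did. These are overlaps of ranges over libraries. Within each model library Slfn1 lay above Slfn8 and Slfn8 above Slfn5, while Slfn5 lay below Slfn9 in model 1 and model 4.

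The makeup of the family differed between groups, and the plot of stacked FPKM shows it library by library. The FPKM of the 7 members summed to 332 to 644 in the controls, 553 to 1087 in the model libraries and 997 to 1454 in the cornus libraries. Slfn4 held 18.9% to 26.7% of that sum in the controls, 30.1% to 39.1% in the model and 43.8% to 51.9% in the cornus libraries, with no overlap between the 3 groups. Slfn2 held 44.0% to 54.6% in the controls, 27.4% to 39.5% in the model and 22.2% to 26.8% in the cornus libraries, also without overlap but in the other direction. No long member held above 6.28% in any library.

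**Figure D1:**
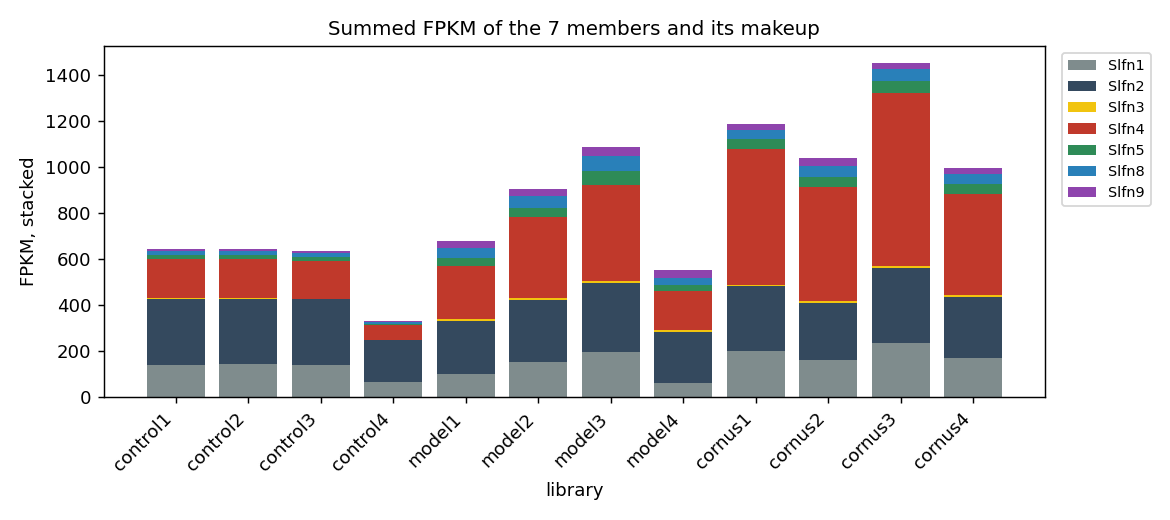
Stacked bars give the FPKM of the 7 Schlafen members in each of the 12 libraries (y axis, FPKM; x axis, library). Slfn4 rises from 18.9% to 26.7% of the sum in the controls to 43.8% to 51.9% in the cornus libraries, and control 4 has the lowest bar.

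Model and control libraries were compared first, for the change of these transcripts under CTX. The 3 long members and Slfn3 were higher in every model library than in every control. Slfn4 was higher on average with overlap, and the short members Slfn1 and Slfn2 were about level. In the fit over all genes, 5 of the 7 members passed the threshold, all higher, where 23.2% of the 12549 genes tested were called higher. With the further condition that a gene also passed with controls 1 to 3 summed, 4 of the 7 did, beside 17.7% of all genes. The 4 model and 4 control values did not overlap in 4 members, all higher, beside 23.3% of all genes. The members' median log2 change was 1.47, and that of all genes tested was 0.00. Since the members were chosen with these counts known, nothing is read from these shares.

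**Figure D2:**
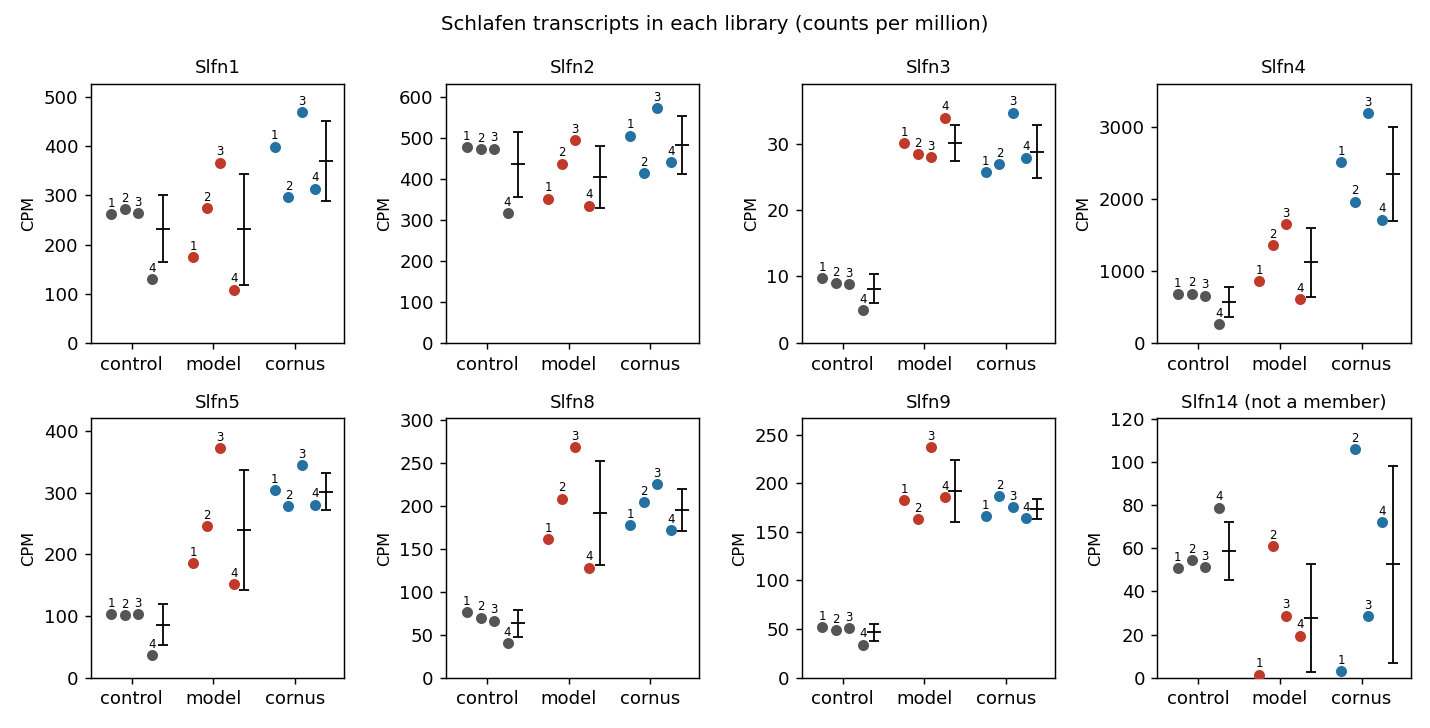
Each panel gives the CPM of 1 gene (y axis, from 0) in the 4 libraries of each group (points, labelled by replicate number), with the mean and SD beside them. Slfn3, Slfn5, Slfn8 and Slfn9 lie above every control in all model and cornus libraries, and Slfn4 does so in all cornus libraries, while Slfn2 overlaps between groups. Slfn14, which is not a member, is shown for comparison.

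Slfn9, a long form with a helicase-like end, changed most. Controls 1 to 4 had 52.0, 49.1, 51.0 and 34.0 CPM and model samples 1 to 4 had 183, 163, 237 and 186. The groups were wide apart, and control 4 was lowest. It rose by 2.04 ± 0.15 on the log2 scale (SE), or 2.18 ± 0.20 with controls 1 to 3 summed.

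Slfn8, the long form next to Slfn9, had 76.3, 70.0, 66.6 and 40.5 CPM in controls 1 to 4 and 161, 209, 269 and 128 in model samples 1 to 4. Again no model value fell within the control range, but model 3 was high and model 4 low. The rise was 1.60 ± 0.23, or 1.78 ± 0.31 summed. Slfn5, whose human counterpart is a nuclear protein that interferon induces, had 103, 102, 103 and 37.0 CPM in the controls and 186, 246, 373 and 152 in the model samples. Its model libraries were in the same order as for Slfn8, with model 3 above model 2, model 1 and model 4. Slfn5 rose by 1.47 ± 0.32 (1.77 ± 0.43 summed).

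Slfn3, an intermediate form, was the scarcest member, with 159, 153, 136 and 69 reads in the controls and 487, 414, 412 and 676 in the model samples. This made 9.73, 9.05, 8.81 and 4.92 CPM and 30.1, 28.4, 28.0 and 33.9 CPM. The model samples were close to each other, and model 4, the lowest for Slfn5 and Slfn8, was the highest here. Slfn3 rose by 1.88 ± 0.18 (2.06 ± 0.24 summed).

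Slfn4, the other intermediate form, is known from mouse monocytes and macrophages, where interferon and bacterial products raise it. It had 679.9, 685, 658 and 262 CPM in controls 1 to 4 and 856, 1364, 1657 and 607 in model samples 1 to 4. Model 4 lay within the range of the controls and the other 3 model libraries lay above it. The log2 change was 0.97 ± 0.36, past the threshold in the fit of 12 libraries. With controls 1 to 3 summed it was 1.26 ± 0.48 and did not pass. It passed in 13 of the 21 alternatives, among them DESeq2. It did not pass when only the model and control libraries were fitted, without control 1, 2, 3 or 4 or without model 2 or 3. It was 0.72 at the lowest, without model 3. Having missed the summed fit, Slfn4 is not counted as having risen in the model group.

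The short forms did not pass the threshold. Slfn1, which slows T cell growth when overproduced, had 262, 271, 264 and 129.8 CPM in the controls and 174, 273, 367 and 108 in the model samples. The model values lay on both sides of the controls, and the log2 change was -0.01 ± 0.34, or 0.22 ± 0.44 with controls 1 to 3 summed. Slfn2, which mouse T cells and monocytes need to stay quiescent and alive and which binds transfer RNA, had 478, 473, 474 and 317 CPM in the controls and 352, 437, 495 and 335 in the model samples. Its log2 change was -0.11 ± 0.17 (0.03 ± 0.21 summed). For both genes the sign depended on how the controls were entered.

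**Figure D3:**
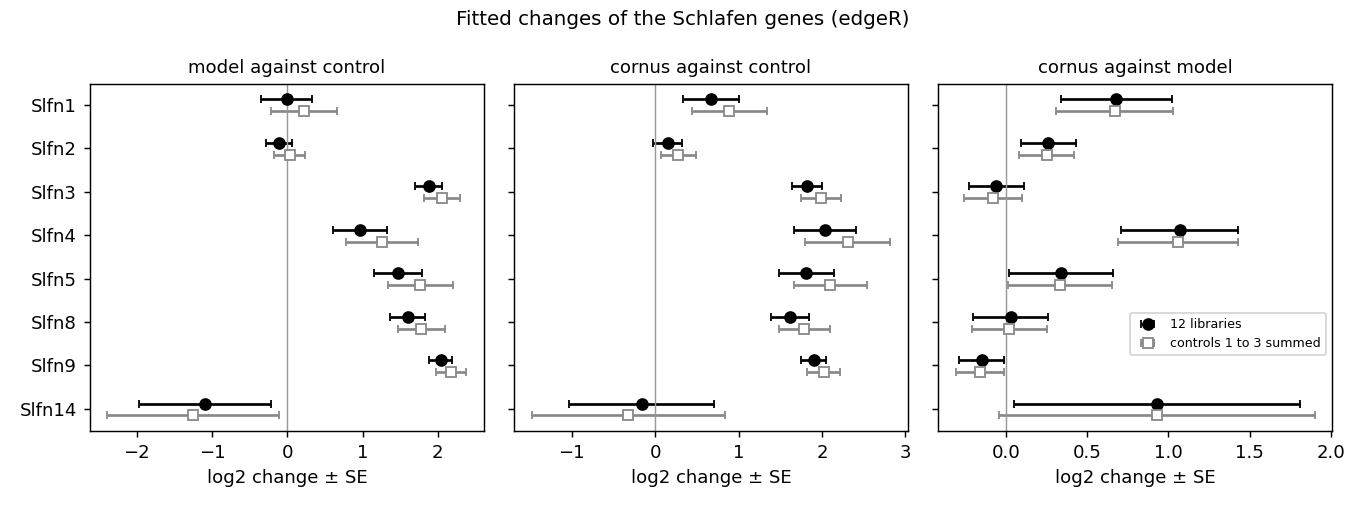
Points give the log2 change with its SE (x axis) of each Schlafen gene (y axis) in the 3 comparisons, from edgeR with 12 libraries (filled circles) and with controls 1 to 3 summed (open squares). Slfn3, Slfn5, Slfn8 and Slfn9 lie well above 0 in both comparisons with control, Slfn1 and Slfn2 lie near 0 in the model group, and Slfn14 has the widest errors.

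The comparison of the cornus group with control shares its control libraries with the comparison above, so the values are set side by side and no agreement between them is counted. The long members and Slfn3 were again higher in every library, and Slfn4 now was too. In the fit over all genes 5 of the 7 members passed, all higher, also with controls 1 to 3 summed. Of all genes, 24.0% were called higher, and 18.6% in both fits. The cornus values lay wholly above the control values in 6 members, beside 24.2% of all genes. The median log2 change of the members was 1.81, against -0.02 for all genes tested, and nothing is read from these shares either.

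Slfn4 changed most in the cornus group, with 2517, 1965, 3193 and 1716 CPM in cornus samples 1 to 4. The lowest of these was more than any control or model value. The rise against control was 2.04 ± 0.37 (2.31 ± 0.51 summed), against the 0.97 ± 0.36 given above for the model group.

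Slfn9 had 166, 187, 176 and 164 CPM in cornus samples 1 to 4 and rose by 1.90 ± 0.15 (2.02 ± 0.20 summed). Slfn8 had 178, 205, 225 and 172 CPM and rose by 1.62 ± 0.23 (1.79 ± 0.31 summed). Slfn5 had 304, 278, 344 and 281 CPM and rose by 1.81 ± 0.33 (2.1 ± 0.44 summed). The cornus libraries were closer to each other than the model libraries in these 3 genes with a coefficient of variation of 5.95% against 16.4% for Slfn9, 12.7% against 31.7% for Slfn8 and 10.2% against 40.7% for Slfn5. Slfn3 went the other way (13.9% against 8.97%). It had 25.7, 27.0, 34.7 and 27.9 CPM and rose by 1.82 ± 0.18 (1.99 ± 0.24 summed).

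Of the short forms, Slfn1 had 399, 297, 469.9 and 314 CPM in the cornus samples, above all controls, the lowest cornus value being 297 and the highest control 271. Its log2 change of 0.67 ± 0.34 did not pass the threshold, nor did it with controls 1 to 3 summed. It passed when only the 8 libraries of those groups were fitted. Slfn2 had 506, 414, 573 and 441 CPM, which overlapped the controls, and a log2 change of 0.15 ± 0.17 that did not pass.

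The comparison of the cornus group with the model group asks whether the nanoparticles changed what CTX had changed, as far as the title states the aim. Slfn4 was higher in every cornus library than in every model library, and the other members overlapped. With edgeR 0 of the 7 members passed the threshold, beside 0.151% of all 12549 genes, and 1 member (Slfn4) had an unadjusted p under 0.05, a count from which nothing is read because these values chose the family. The DESeq2 test called 1 member, also Slfn4, and limma on FPKM called 0. The groups did not overlap in 1 member, beside 6.04% of all genes that were wholly higher.

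The log2 change of Slfn4 was 1.07 ± 0.36, from 1121 ± 476 CPM in the model group to 2348 ± 656 in the cornus group (SD, n = 4). The gap between the groups was narrow, with 1657 CPM in model 3 and 1716 in cornus 4. The change was 0.87 to 1.31 over the 21 alternatives, and it passed in 2 of them, the DESeq2 test and the fit without control 4.

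Slfn1, which lies next to Slfn4 in the cluster, had 231 ± 113 CPM in the model and 369.8 ± 80.4 in the cornus group, a log2 change of 0.68 ± 0.34. The changes of Slfn5 (0.34 ± 0.32), Slfn2 (0.26 ± 0.17), Slfn8 (0.03 ± 0.23), Slfn3 (-0.06 ± 0.17) and Slfn9 (-0.15 ± 0.14) were smaller. None of these passed, which does not show that the groups are alike.

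The members also varied together from library to library. Over the 12 libraries, the deviations of log2 CPM from the group means of Slfn1, Slfn2, Slfn4, Slfn5 and Slfn8 had a Pearson r of 0.89 to 0.97 between any pair. Slfn3 had 0.35 to 0.66 with the other members, and Slfn9 had 0.58 to 0.82. These r are descriptions over libraries that share depth and composition, controls 1 to 3 being nearly 1 point. In the model group, model 3 was highest and model 4 lowest in Slfn1, Slfn2, Slfn4, Slfn5 and Slfn8. In the cornus group, cornus 3 was highest in every member but Slfn9. Control 4 was the lowest control in all 7, from 0.360 times the mean of controls 1 to 3 in Slfn5 to 0.671 times in Slfn9.

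Within the groups, late neutrophil markers moved with these differences. The 18 late neutrophil markers summed to 37308, 52905, 59294 and 30178 CPM in model samples 1 to 4, also highest in model 3 and lowest in model 4. In cornus samples 1 to 4 they summed to 89198, 58726, 89439 and 60568, high in the same pair, cornus 1 and cornus 3, as Slfn4, Slfn1 and Slfn2. Control 4 had 50989 against 78296 to 80464 in the other controls. Against control, 15 of the 18 were called lower in the model group and 4 in the cornus group, and 0 higher (11 and 4 lower in both fits). Of all genes, 20.9% and 23.6% were called lower (15.8% and 19.7% in both fits). The median log2 changes of these markers were -1.13 and -0.47, opposite in sign to the rises of Slfn3, Slfn5, Slfn8 and Slfn9. Between the cornus and model groups the median was 0.66, and edgeR called 0.

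The 14 monocyte markers summed to 4745 to 9645 CPM in the controls, 6367 to 13328 in the model and 12083 to 21205 in the cornus libraries. They were highest in model 2 and cornus 1. Of the 14, 3 were called higher and 2 lower in the model group against control, and 5 and 1 in the cornus group. Of all genes, 23.2% and 24.0% were called higher and 20.9% and 23.6% lower. The sums thus do not stand for every marker. The 10 primary granule markers of early neutrophils summed to 2976 to 3595, 5234 to 8574 and 4544 to 8056 CPM in control, model and cornus libraries, and were lowest in model 2 within the model group. The 17 T and NK cell markers found in the table summed to 280.3 to 334, 195 to 562 and 217 to 352 CPM. The median log2 changes of the 16 tested were -1.08 and -1.04. The 16 B lineage markers summed to 1416 to 3075 CPM in the controls and to no more than 283 CPM in any library of the other groups, which is beside the rise of Slfn3, Slfn5, Slfn8 and Slfn9 and opposite to it. No marker of these lists was at 0 throughout a group. The part of cell makeup in the members' changes was not tested.

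For the remaining marker lists the summed CPM, in control, model and cornus libraries in turn, were as follows. The 14 resident macrophage markers gave 509 to 585, 364 to 477 and 491 to 553. The 15 erythroid markers gave 30285 to 116166, 865 to 15347 and 475 to 21631. The 14 eosinophil, basophil and mast cell markers gave 4841 to 6279, 168 to 825 and 146 to 253. The 14 dendritic cell markers gave 635 to 719.5, 583 to 849.8 and 432 to 755. The 14 stem and progenitor markers gave 257 to 314, 349.8 to 473 and 366 to 445. Eosinophil, basophil and mast cell markers, and erythroid markers too, were thus lower in both treated groups than in any control. Erythroid markers varied most within a group.

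Interferon-stimulated genes, the class in which many Schlafen genes are counted, mostly rose. Of 40 such genes outside the family, 39 could be tested, and 34 were called higher and 1 lower in the model group against control (32 and 1 in both fits). Of all genes tested 23.2% were called higher and 20.9% lower, and 15.8% lower in both fits. The list's median log2 change was 1.57. Against control the cornus group had 34 higher and 0 lower (33 in both fits), with a median of 1.67, where 23.6% of all genes were called lower and 19.7% in both fits. Oas1g, an antiviral oligoadenylate synthetase, rose by 3.62 ± 0.17 in the model group (edgeR adjusted p = 2.07e-07, or 8.10e-05 summed) and by 4.03 ± 0.18 in the cornus group (9.11e-08, or 4.87e-05). Eif2ak2, the kinase PKR that halts translation when it meets viral RNA, rose by 2.01 ± 0.15 and 1.67 ± 0.14 (edgeR adjusted p = 8.60e-06 and 2.99e-05). Ifi44, an antiviral gene, rose by 4.07 ± 0.37 and 3.99 ± 0.37 (edgeR adjusted p = 2.56e-05 and 3.26e-05). Oas1a, a relative of Oas1g, rose by 1.77 ± 0.16 and 2.1 ± 0.16 (edgeR adjusted p = 2.64e-05 and 1.61e-05). Oasl1, which restrains Irf7 in the mouse, rose by 1.75 ± 0.16 and 1.83 ± 0.16 (edgeR adjusted p = 2.83e-05 and 2.99e-05). Isg20, an exonuclease, was the 1 gene that fell in the model group, with a log2 change of -1.40 ± 0.48 (edgeR adjusted p = 0.0335), and is named after its value was seen. Its call was lost without control 4, model 1, model 3 or model 4, with a change of -0.90 at the nearest to 0.

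Between the cornus and model groups edgeR called 0 of the 39 interferon-stimulated genes, and DESeq2 and limma on FPKM called 0. With edgeR 4 had an unadjusted p under 0.05. The share of all genes under that value is not given, so nothing is read from the 4. In the heat map of log2 differences the median of this list was highest in model 3 and lowest in model 4 within the model group, as were Slfn1, Slfn2, Slfn4, Slfn5 and Slfn8. Relative to controls 1 to 3 it was 1.13, 1.39, 1.86 and 0.86 in model samples 1 to 4, 1.38, 1.62, 1.67 and 1.43 in cornus samples 1 to 4, and -0.72 in control 4. Slfn8 had 1.19, 1.56, 1.92 and 0.86 in the model samples and 1.33, 1.53, 1.67 and 1.28 in the cornus samples. Slfn4 lay below the list's median in all 4 model libraries, with 0.34, 1.02, 1.30 and -0.15. It lay above it in cornus 1 and cornus 3 (1.90 and 2.24) and below it in cornus 2 and cornus 4 (1.54 and 1.35).

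**Figure D4:**
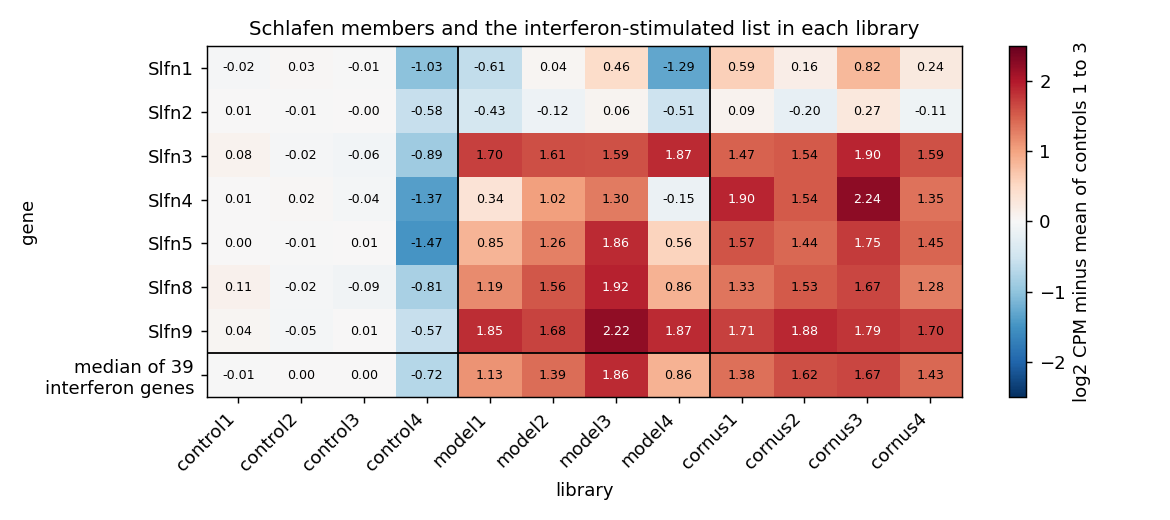
Cells give log2 CPM minus the mean of controls 1 to 3 for each member and, in the bottom row, the median of 39 interferon-stimulated genes, in each of the 12 libraries (x axis; colour gives the difference). Slfn8 runs close to the list's median, from 0.86 to 1.92 in the treated libraries, whereas Slfn1 and Slfn2 lie on both sides of 0.

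Of the 20 genes tested that carry the interferon signal, 5 were called higher and 2 lower in the model group (4 and 2 in both fits), with a median log2 change of 0.30, and 5 and 2 in the cornus group (5 and 1 in both fits), with a median of 0.05. The higher calls are near the 23.2% and 24.0% of all genes called higher, so the count is not a result about the list. Irf7, a factor that amplifies type I interferon, rose by 1.46 ± 0.30 and 1.83 ± 0.30 (edgeR adjusted p = 0.00223 and 7.08e-04). Stat2, a part of the complex that binds the response element, rose by 1.49 ± 0.28 and 1.14 ± 0.28 (edgeR adjusted p = 0.00136 and 0.00605). Of the 3 Janus kinases in the list, Jak2 rose by 0.67 ± 0.13 and 0.62 ± 0.13 (edgeR adjusted p = 0.00131 and 0.00213). Tyk2 rose by 0.32 ± 0.09 and 0.43 ± 0.09 (edgeR adjusted p = 0.0124 and 0.00236). Jak1 did not pass, with -0.08 ± 0.12 and 0.26 ± 0.12 (edgeR adjusted p = 0.635 and 0.0963). Irf3, which starts interferon production, fell in both groups, with log2 changes of -0.80 ± 0.14 and -0.64 ± 0.14 (edgeR adjusted p = 8.18e-04 and 0.00304).

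Genes for other RNA-cutting enzymes and for the protection of transfer RNA were listed because several Schlafen proteins act on such RNA. Of 14 tested, 4 were called higher and 0 lower in the model group (3 in both fits) with a median log2 change of 0.12, and 6 higher and 1 lower in the cornus group (6 and 1 in both fits) with a median of 0.06. Beside the 23.2% and 24.0% of all genes called higher, the model count is near the background. Dicer1, which cuts the precursors of microRNAs, rose by 0.79 ± 0.07 and 0.68 ± 0.07 (edgeR adjusted p = 2.26e-05 and 4.73e-05). Ago2, which slices RNA guided by small RNAs, rose by 0.55 ± 0.13 and 0.76 ± 0.13 (edgeR adjusted p = 0.00556 and 9.82e-04). Trdmt1, a methyltransferase of transfer RNA, rose by 0.51 ± 0.17 and 0.53 ± 0.17 (edgeR adjusted p = 0.0261 and 0.0213). Its values overlapped with the controls in both groups. The calls were lost without control 2 or 4, and without model 1 or 3 or cornus 1 or 3 in their own comparison. Zc3hav1, an antiviral zinc finger protein, rose by 0.41 ± 0.10 in the cornus group (edgeR adjusted p = 0.00510). Its 0.30 ± 0.10 in the model group passed with all 12 libraries and in 17 of 21 alternatives, but not in the summed fit or without control 1, model 2 or model 3.

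Quiescence of lymphocytes is the process that gave the family its name. Of 16 genes that hold it, the model group had 10 called lower and 3 higher (8 and 3 in both fits), with a median log2 change of -0.41, and 6 lower and 3 higher in the cornus group (6 and 2 in both fits), with a median of -0.24. Of all genes in the model group, 20.9% were called lower and 23.2% higher (15.8% and 17.7% in both fits), and 23.6% and 24.0% in the cornus group (19.7% and 18.6% in both fits). Btg1, an antiproliferative gene, fell, with log2 changes of -1.40 ± 0.14 and -1.37 ± 0.13 (edgeR adjusted p = 2.95e-05 and 4.18e-05). Foxo1 and Klf2, transcription factors of resting lymphocytes, fell too, with -1.68 ± 0.25 and -1.89 ± 0.23 in the model group and -2.05 ± 0.26 and -1.35 ± 0.22 in the cornus group (edgeR adjusted p = 3.52e-04, 9.94e-05, 1.40e-04 and 7.55e-04). Kdm5a, a histone demethylase, rose by 0.63 ± 0.09 and 0.67 ± 0.09 (edgeR adjusted p = 2.17e-04 and 1.76e-04). Lymphocyte markers moved beside this list. Of 16 B lineage markers tested, 12 fell in the model and 15 in the cornus group, in both fits. Of 16 T and NK cell markers tested, 5 fell and 2 rose in the model group and 7 fell and 1 rose in the cornus group, with median log2 changes of -1.08 and -1.04. Their part in the list's changes was not tested. For these 3 lists edgeR called 0 genes between the cornus and model groups, with 4, 4 and 5 genes at an unadjusted p under 0.05 in the signalling, RNA and quiescence lists. Nothing is read from these counts, since the share of all genes under that value is not given. DESeq2 called 0, 1 and 1 and limma on FPKM 1, 1 and 0.

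The genes with the most similar pattern differed between members. Likeness was the Pearson r of log2 CPM over the 12 libraries among 11585 genes. It is given as a description, since the libraries share depth and composition. With deviations from the group means the r of the pairs below was 0.89 to 0.98. Control 4 enters these deviations far from controls 1 to 3, so 1 library may carry much of this r. Slfn8 was most like Oasl2 and Znfx1, both antiviral genes (r = 0.994 and 0.993), and Slfn5 was most like Tmod3, which caps actin filaments, and Samd9l, an interferon-induced gene (0.994 for both). Slfn3 was closest to Ctdspl2 and Usp9x (0.994 for both), and Slfn9 to Tnpo1, a nuclear import receptor, and Zdhhc21 (0.993 and 0.991). Slfn4 was closest to Map4, a microtubule protein, and Parp4 (0.986 and 0.984). Slfn1 was closest to Ngp, a granule protein of neutrophils, and Ipcef1 (0.976 and 0.972), and Slfn2 to Ipcef1 and Glipr2 (0.971 and 0.968). Mean CPM of Oasl2 was 80.8 in control, 432 in model and 504 in cornus libraries, and that of Ngp was 14932, 14240.3 and 21711.

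Outside the members, the family gene at the far end of the cluster varied widely within the model and cornus groups. Slfn14, a long form that cuts ribosomal RNA and whose human mutations cause a bleeding disorder with low platelets, had 50.9, 54.5, 51.3 and 78.8 CPM in controls 1 to 4. It had 1.42, 61.0, 28.8 and 19.5 CPM in model samples 1 to 4 and 3.17, 106, 28.5 and 72.2 in cornus samples 1 to 4. It was low in model 1 and cornus 1, with 23 and 41 reads, and highest in cornus 2. Hemoglobin transcripts took 0.0249% and 0.0218% of the counts in model 1 and cornus 1, the 2 lowest shares of the 12 libraries, and 9.80% in control 4, the highest. Their part in the values of Slfn14 was not tested. In the other treated libraries hemoglobin took 0.332% to 1.57%. The log2 changes of Slfn14 were -1.09 ± 0.88, -0.16 ± 0.87 and 0.93 ± 0.88 for model against control, cornus against control and cornus against model, and none passed. Slfnl1, on chromosome 4, had 8, 9 and 8 reads in the 3 groups and was not tested.

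Before Slfn5, the cluster is flanked by Unc45b, which had too few counts to be tested, and by Nle1, a ribosome assembly gene. Nle1 was not called in the model group against control, with a log2 change of 0.00 ± 0.18 (edgeR adjusted p = 0.994). In the cornus group against control it fell, with a log2 change of -0.50 ± 0.18 (edgeR adjusted p = 0.0366, or 0.0327 in the summed fit). Its values overlapped between these groups, and the call was lost without control 2, control 4 or any 1 of the 4 cornus libraries.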

How the data were processed

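Per the labels' protocols, Trizol RNA was enriched for poly(A) transcripts and the libraries were amplified by PCR. The submitters' processing notes name fastp 0.22.0, HISAT2 2.1.0 and HTSeq 0.9.1; the genome build, annotation and strand setting are not given in the sources used here. The authors deposited whole read counts and FPKM per gene for 12 samples. The deposited FPKM equalled count over deposited gene length and 1 factor per library.

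Counts of 12549 genes were tested with edgeR 4.0.16 in R 4.3.3 (TMM, filterByExpr defaults, quasi-likelihood F test), all 12 samples in 1 fit with group as the only term, and Benjamini-Hochberg adjustment with a threshold of 0.05. CPM used TMM library sizes, and log2 CPM a prior count of 2. SE is the log2 change over the square root of F. Alternatives included DESeq2 1.42.0 and limma 3.58.1 on log2(FPKM + 0.1). The fit was tested on simulated data.

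The members, lists and tests were chosen with earlier results of these data known. Named genes are the members, other Slfn genes, cluster neighbours, up to 4 called genes of each of 4 pathway lists with the smallest p, and the 2 genes most like each member with a mean CPM of at least 1, leaving out predicted genes. A result that the rule would name is not reported here. The pathway lists were interferon-stimulated genes, interferon signalling, RNA-cleaving and tRNA-protecting genes, and lymphocyte quiescence.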

Additional observations from a re-analysis of the deposited data

Results flagged for a closer look

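In 6 of the 7 members control 4 lay far below the other controls: its gap to the nearest control, as a share of the range over the 4 controls in log2 CPM, passed the critical value of Dixon's test for 4 values. That share was 0.985 for Slfn5, 0.974 for Slfn2, 0.957 for Slfn4, 0.953 for Slfn1, 0.867 for Slfn9 and 0.854 for Slfn3. For Slfn14, outside the members, control 4 lay above the others with a share of 0.840. Of 24 sets of 4 libraries tested, 7 passed, all of them for control 4. Chance passes about 1 set in 20 when the 4 values are independent. Controls 1 to 3, being nearly alike, make the share large for any gene in which control 4 differs. How many of all genes pass was not counted, so the 7 have no background beside them. Control 4 also had the highest share of hemoglobin counts (9.80%) and the lowest sum of late neutrophil markers among the controls. The members were chosen by these same counts, so the shares are a description and support nothing. The part of either in its low Schlafen values was not tested.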

How the results depend on the processing

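The calls between the cornus and model groups depended on the test: edgeR on all 12 samples called 19 genes, with the filter left out 12, with only the 2 groups fitted 0, with controls 1 to 3 summed 0, with DESeq2 804 and with limma on FPKM 523. Leaving out 1 library gave 0 to 1035, the highest without control 4. The 19 split into 10 higher and 9 lower (52.6% higher), and the 523 into 9.56% higher. In the model group against control 52.6% of calls were higher, 62.6% with limma on FPKM and 46.9% with upper-quartile factors; in the cornus group against control 50.5%, 45.2% and 43.0% were. Upper-quartile scaling shifted the median log2 change of all genes by no more than 0.08 and the FPKM fit by no more than 0.13. In the same cornus and model comparison, DESeq2 called 1 member, 1 RNA-list gene and 1 quiescence gene, and limma 1 signalling gene and 1 RNA-list gene, where edgeR called 0; without 1 library each of these counts was 0 to 1. The RNA-list calls without 1 library were 2 to 5 (4 with all) for the model and 3 to 7 (7 with all) for the cornus group against control. 

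Of the members' changes, those near 0 turned in sign. In the model group against control Slfn1 was -0.01, 0.22 with controls summed and -0.33 to 0.21 without 1 library, and Slfn2 was -0.11 and 0.03 summed. Nle1 was 0.00, -0.15 summed, -0.04 with upper-quartile factors, -0.00 with DESeq2 size factors and -0.12 to 0.18 without 1 library. In the cornus group against the model group Slfn8 was 0.03, -0.04 with limma on FPKM and -0.11 to 0.23 without 1 library, and Slfn3 was -0.06 and -0.17 to 0.02 without 1 library. Slfn14 in the cornus group against control was -0.16 and -0.75 to 0.23 without 1 library. The cause was not tested.

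The replicate numbers were not taken to pair the samples, since not every same-numbered pair correlated above 0.1: their deviations correlated at -0.14 to 0.45. As a hint from the data, 7 of 12 libraries correlated best with their own number. With the replicate number as a block, 5726, 0 and 6258 genes were called in the model group against control, the cornus group against the model group and the cornus group against control. Without it 5531, 19 and 5972 were. Slfn1 was added to the members called in the last of these. Slfn3 had the lowest counts of the members, 69 to 159 reads in the controls.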
